A study of Mus musculus with 8 samples.

Results

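The replication-dependent histone genes encode the linker histone H1 and the core histones H2A, H2B, H3 and H4 that package newly copied DNA. They were taken here by symbol, as every gene whose name begins with Hist and a cluster number from 1 to 4 followed by h. The rule found 68 of the 24421 genes in the count tables, namely 6 H1, 18 H2A, 19 H2B, 12 H3 and 13 H4 genes. In the GENCODE M21 annotation (GRCm38, the same sequence as mm10) 54 of them lie on chromosome 13, 10 on chromosome 3, 3 on chromosome 11 and 1 on chromosome 6. The symbol rule also takes in testis-type genes (Hist1h1t, Hist1h2aa and Hist1h2ba) and Hist3h2bb-ps, whose suffix marks a pseudogene.

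Histone octamers of H2A, H2B, H3 and H4 wrap DNA into nucleosomes, and H1 binds the DNA that enters and leaves them. The genes of this family lie in clusters, have no introns as a rule, and are transcribed during S phase, when new DNA needs new nucleosomes. Most of their mRNAs end in a conserved stem-loop instead of a poly(A) tail. The stem-loop binding protein Slbp and the U7 snRNP direct the cleavage that makes this end, and the mRNAs are degraded when DNA synthesis stops.

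RNA came from mouse embryonic stem cells of a hybrid CAST/Ei x 129/Sv/Jae line, either wild type (WT) or carrying the 6A mutation of HNRNPK, an RNA-binding protein that links Xist RNA to Polycomb repression. The residues that 6A replaces, and whether each genotype was 1 clone, are details not given in the sources used here. Day 0 cells of both genotypes had grown for 2 days on irradiated embryonic fibroblast feeders in serum medium with leukemia inhibitory factor (LIF), and the feeders were then removed. Day 14 cells of both genotypes had lost LIF, spent 4 days in suspension as embryoid bodies and were plated on gelatin at day 5. The sample labels say day 14, which is used, although the design sentence of the series says day 7. Each of the 4 groups (WT day 0, 6A day 0, WT day 14 and 6A day 14) had 2 libraries of total RNA depleted of ribosomal RNA. The protocol calls them biological replicates without saying that they came from separate cultures or differentiations, so p-values measure only the spread between these samples. Permuting 2 libraries against 2 exactly cannot give a two-sided p below 0.333, so tests rest on a spread estimated across all genes.

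Library totals ran from 8146684 to 15540163 counts, of which the histone genes took between 0.407% and 0.871%. Levels are normalised read counts (CPM, scaled to library size with TMM factors), and 3 counts corresponded to between 0.2 and 0.37 CPM. Hnrnpk was lower in the 6A libraries at day 0, at 880.0 and 709 CPM for WT and at 527 and 538 CPM for 6A (log2 fold change -0.58 ± 0.12 SE, edgeR adjusted p = 0.0400), and at day 14 (-0.40 ± 0.12, adjusted p = 0.0434). The calls were lost in 8 and 9 of 14 alternatives, and the level of Hnrnpk RNA does not check a substitution in the protein. All 8 embryonic stem cell markers fell in both genotypes by day 14, and 4 of the 8 passed as higher in 6A at that day (sums of 473 and 443 CPM for WT and of 615 and 603 CPM for 6A). At day 14 the 6 neural markers summed to 198 and 193 CPM in WT and to 25.0 and 24.1 CPM in 6A, and the 6 cardiac markers to 1298 and 1488 CPM for WT and to 219 and 211 CPM in 6A. The 5 blood markers summed to 11.6 and 10.4 CPM in WT and to 105 and 106 CPM in 6A, so the day 14 cultures of the 2 genotypes differed in these 3 lists as well as in the stem cell markers. The part of this makeup in the day 14 and interaction values of the histone genes was not tested. In bulk RNA, fewer cells of a type and less RNA per cell cannot be told apart.

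The stem-loop is the feature that sets these mRNAs apart, so its forms are shown first. The 16-base element, with 6 base pairs in the stem and 4 bases in the loop, was searched in the annotated GENCODE M21 transcripts and was found in 44 of the 68 members. Of the 24 members without it, 16 have an annotated transcript of at most 500 bases, and a missing match says only that the letters are not in that annotated transcript. There were 6 forms, and 1 example of each is printed from 5′ to 3′ with the stem-loop in capitals and up to 5 flanking bases on each side. The first form is carried by 26 members (3 H1, 10 H2A, 8 H2B and 5 H3), the second by 6 members of H1, H2B and H3, and the third by Hist2h2ac. The other 3 forms were found in H4 genes only, in 7, 2 and 2 members. The examples lie at chr13:23739507-23739532 (plus strand), chr13:23544927-23544952 (plus), chr3:96220413-96220438 (minus), chr13:23581945-23581970 (plus), chr3:96262934-96262959 (minus) and chr13:23757361-23757386 (plus), in GRCm38.
Hist1h1c: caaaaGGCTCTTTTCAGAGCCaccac
Hist1h3f: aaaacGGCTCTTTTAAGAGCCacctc
Hist2h2ac: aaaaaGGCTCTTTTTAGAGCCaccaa
Hist1h4d: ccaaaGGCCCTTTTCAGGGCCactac
Hist2h4: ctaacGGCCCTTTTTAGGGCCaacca
Hist1h4b: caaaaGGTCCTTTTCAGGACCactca

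Of the 68 members, 60 passed the filter on low counts and were tested among 15458 genes, namely all 6 H1, 14 H2A, 17 H2B, 10 H3 and all 13 H4 genes. The 8 that did not pass were Hist1h2ao, Hist1h2ap, Hist2h2aa1, Hist2h2aa2, Hist1h2bq, Hist1h2br, Hist2h3c1 and Hist2h3c2, and 6 of these were at 0 in all 8 libraries. Hist1h2ao had 27 counts and Hist2h3c1 had 2 counts in total. Copies of this family are nearly identical, and the authors' rule for reads that match several genes was not stated in any source used. A window of 150 bases, the read length, was therefore slid along all annotated transcripts of each member. A median of 23.9% of a member's windows were found in another gene too, with 0% for the median H1 gene and 58.8% for the median H2A gene. More than 50% of windows were shared in 21 members and none in 15. All 18 H2A genes also overlap an annotated gene on the other strand, and so do Hist2h2bb, Hist2h3b and Hist1h4b. Values of single H2A genes are therefore uncertain. So are those of H2B, H3 and H4 genes that share many windows or have such an overlap. The class medians were 22.3% for H2B, 38.2% for H3 and 12.5% for H4, and no H3 gene was free of shared windows. Values of H1 genes rest on sequence found in no other gene, except Hist1h1e. Of its windows 19.5% were found in other genes, most often in Hist1h2be.

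Each histone class was lower at day 14 than at day 0 in WT, and the linker histones differed least between the 2 days. Summed over its 6 genes, H1 stood at 2357 and 2138 CPM in WT day 0, 1693 and 1503 CPM in 6A day 0, 1636 and 1256 CPM in WT day 14, and 1693 and 1368 CPM in 6A day 14. H2A summed to 827 and 965 CPM in WT day 0, 725 and 598 CPM in 6A day 0, 556 and 327 CPM in WT day 14, and 489 and 348 CPM in 6A day 14. H2B summed to 1880.2 and 1713 CPM, 1542 and 1406 CPM, 960.4 and 674 CPM, and 974 and 773 CPM in the same order. For each of these 3 classes both WT day 0 libraries lay above all others. H3 summed to 1547 and 1539 CPM in WT day 0, 1111 and 971 CPM in 6A day 0, 938 and 581 CPM in WT day 14, and 844 and 613 CPM in 6A day 14. H4 summed to 2658 and 2066 CPM in WT day 0, 1920.2 and 1432 CPM in 6A day 0, 1476 and 913 CPM in WT day 14, and 1330.1 and 891 CPM in 6A day 14. For H3 and H4 both WT day 0 libraries again lay above all others. For H1 and H4 the higher WT day 14 library lay above the lower 6A day 0 library.

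**Figure D1:**
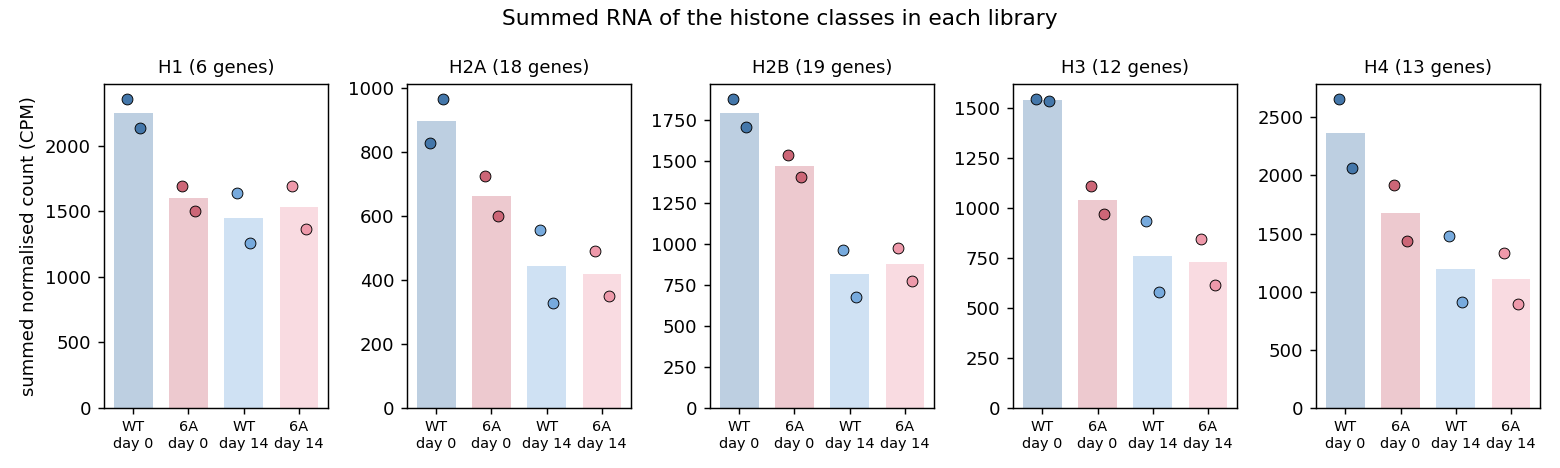
Summed normalised counts (CPM, y axes from 0) of the genes of each histone class in the 4 groups. Points are the 2 libraries of a group and bars their mean. In all 5 classes the WT day 0 libraries are the highest, and day 14 levels of WT and 6A overlap.

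As ratios of group means, the day 14 level of WT was 0.644 of the day 0 level for H1, 0.493 for H2A, 0.455 for H2B, 0.492 for H3 and 0.506 for H4. In 6A the ratios were 0.958, 0.633, 0.593, 0.6999 and 0.663 in the same order. The 2 sets share no library. In both genotypes H1 had the ratio nearest to 1 and H2B the lowest. These sums have no test. They moved with single libraries: without replicate 1 of WT day 14 the log2 ratio of H3 in WT was -1.41, and without replicate 2 it was -0.72, against -1.02 with both.

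H1 made up more of the histone RNA at day 14. The ratio of summed H1 to summed core histone CPM was 0.341 and 0.340 in WT day 0 and 0.320 and 0.341 in 6A day 0. It was 0.416 and 0.503 in WT day 14 and 0.466 and 0.521 in 6A day 14. Every day 14 library lay above every day 0 library.

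On differentiation of WT cells, 39 of the 60 tested members fell and 1, Hist2h2be, rose (edgeR quasi-likelihood test, Benjamini-Hochberg adjusted over all genes). Over all tested genes 75.2% were called, 36.8% lower and 38.4% higher, so the share of members that fell, 65%, was above that background. Both day 14 libraries lay below both day 0 libraries for 48 members, or 80%, against 41.7% of all tested genes, and above them for 1 member against 44.5% of all. The median log2 fold change of the members was -0.94, against 0.04 over all tested genes. By class, 3 of 6 H1, 9 of 14 H2A, 11 of 17 H2B, 7 of 10 H3 and 9 of 13 H4 genes fell. Without replicate 2 of WT day 14 the number that fell was 25, and without replicate 1 it was 44.

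In 6A cells, 24 of the 60 members fell and 2, Hist1h1e and Hist1h1c, rose. Over all tested genes 71.9% were called, 36.6% lower and 35.4% higher. The 40% of members that fell was near that background in this fit. More members fell with the replicate number as a block, as given in the last section. Day 14 lay below day 0 without overlap for 40 members, or 66.7%, against 44.3% of all tested genes, and above it for 2 members, or 3.33%, against 42.6% of all. The median of the members was -0.58, against -0.03 over all tested genes, and it ran from -0.89 to -0.49 when single libraries were left out. By class, 3 H1, 4 H2A, 10 H2B, 2 H3 and 5 H4 genes fell. Of the genes that fell, 21 were in both lists, which is 53.8% of the WT list and 87.5% of the 6A list. Hist3h2bb-ps, Hist3h2ba and Hist1h4m passed the test in 6A and not in WT. Their WT log2 fold changes were -0.51, 0.38 and -1.87 in the same order (edgeR adjusted p = 0.110, 0.147 and 0.0502). Of these only Hist3h2ba passed the interaction test. Hist1h4m rests on between 1 and 20 counts a library.

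Fitted changes were more negative in WT than in 6A for 53 of the 60 members. The test of that difference, the interaction, called 2 of these 53 and 1 of the other members, as given below. Genes outside the family with short transcripts also had negative medians. For 308 tested genes outside the family with a longest transcript of at most 600 bases, the median log2 fold change was -0.66 in WT and -0.58 in 6A. The 55 of these that are protein-coding had medians of -0.55 in WT and -0.81 in 6A, more negative in 6A. For 14535 longer genes the medians were 0.06 and -0.02. Histone members were not held to this limit, and some have longer annotated transcripts. The part of transcript length in the histone values was not tested.

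**Figure D2:**
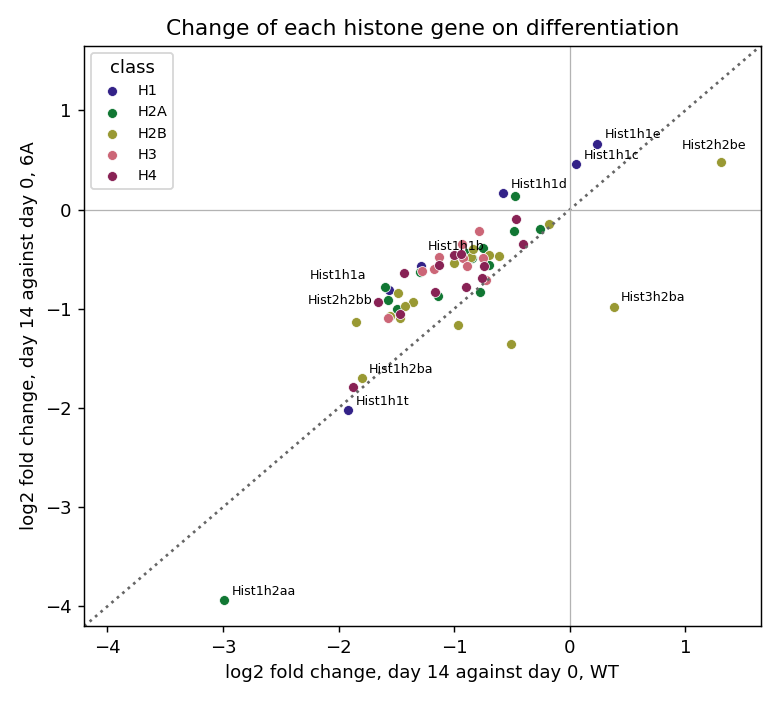
Log2 fold change of each tested histone gene from day 0 to day 14 in WT (x axis) and 6A (y axis), coloured by class. The dotted line marks equal change, and 53 of 60 points lie above it. Hist1h1e and Hist1h1c lie above 0 on both axes, and Hist1h2aa lies at -2.99 and -3.94.

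The 6 linker histone genes did not move as 1 group. Hist1h1a and Hist1h1b encode H1 subtypes of dividing cells, and both fell in both genotypes. Hist1h1a stood at 827 and 714 CPM in WT day 0 and 284 and 239 CPM in WT day 14 (log2 fold change -1.56 ± 0.15 SE, edgeR adjusted p = 4.68e-07). In 6A it stood at 595 and 499 CPM at day 0 and 351 and 272 CPM at day 14 (-0.81 ± 0.15, adjusted p = 0.000232). Hist1h1b stood at 406 and 392 CPM in WT day 0, 174 and 152 CPM in WT day 14, 309 and 286 CPM in 6A day 0, and 216 and 186 CPM in 6A day 14. Its log2 fold changes were -1.29 ± 0.12 in WT (adjusted p = 3.22e-07) and -0.57 ± 0.12 in 6A (adjusted p = 0.000691). For both genes every day 14 library lay below every day 0 library.

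Hist1h1c and Hist1h1e encode H1 subtypes that are also made outside S phase in differentiated cells. Neither passed the test in WT. Hist1h1c stood at 275 and 320.2 CPM in WT day 0 and 369 and 252 CPM in WT day 14, so the groups overlapped (0.06 ± 0.16, edgeR adjusted p = 0.757). In 6A it rose from 198 and 211 CPM to 294 and 268 CPM (0.46 ± 0.16, adjusted p = 0.0196), a call that was lost without replicate 1 of 6A day 0 or of 6A day 14 (adjusted p up to 0.106). Hist1h1e stood at 410.3 and 341 CPM in WT day 0 and 493 and 391 CPM in WT day 14 (0.24 ± 0.14, adjusted p = 0.135). In 6A it rose from 279 and 268 CPM to 468 and 401 CPM (0.66 ± 0.14, adjusted p = 0.000673), with no overlap between the days. The difference of these changes between genotypes did not pass the interaction test for either gene (adjusted p = 0.370 for Hist1h1c and 0.257 for Hist1h1e).

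Hist1h1d, another somatic H1 gene, did not pass in either genotype (-0.57 ± 0.24 in WT, adjusted p = 0.0597, and 0.17 ± 0.24 in 6A, adjusted p = 0.559). Its annotated transcript is 7425 bases long, with the stem-loop 4884 bases before its end. Hist1h1t, the testis-type H1, was low, at 7.16 and 8.47 CPM in WT day 0 and 2.43 and 1.82 CPM in WT day 14. It fell in WT (-1.91 ± 0.29, adjusted p = 3.40e-05) and in 6A (-2.02 ± 0.31, adjusted p = 4.68e-05).

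**Figure D3:**
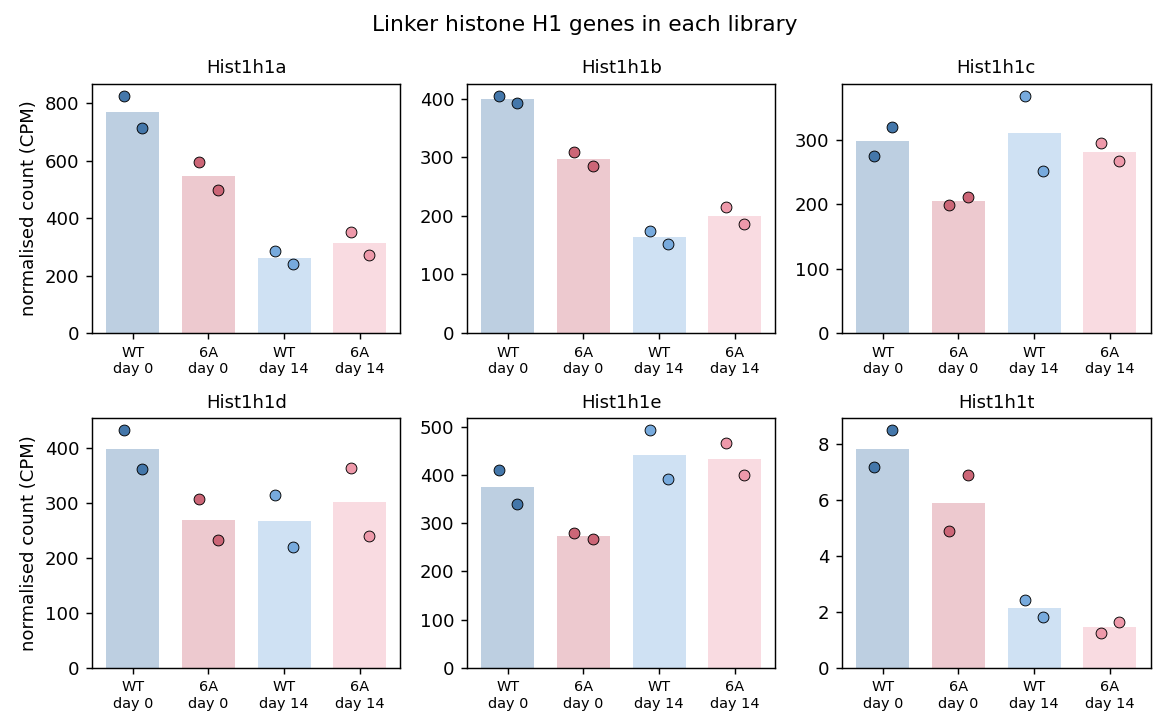
Normalised counts (CPM, y axes from 0) of the 6 linker histone genes in the 4 groups, with points for the 2 libraries of a group and bars for their mean. Hist1h1a, Hist1h1b and Hist1h1t are lower at day 14 in both genotypes, while Hist1h1c and Hist1h1e are not.

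The promoters of 4 H1 genes, 2 that fell and 2 that rose in 6A, are shown with that of the H2B gene Hist2h2bb, whose RNA passed the test in most comparisons below. The bases just before the RefSeq start are printed on the gene's strand (GRCm38.p6), at chr13:23763543-23763667 (plus) for Hist1h1a, chr13:21780626-21780750 (minus) for Hist1h1b, chr13:23738682-23738806 (plus) for Hist1h1c, chr13:23622559-23622683 (minus) for Hist1h1e and chr3:96269575-96269699 (plus) for Hist2h2bb. RefSeq names the H1 genes H1f1, H1f5, H1f2 and H1f4. Capitals mark matches, on either strand, to the H1 box AAACACA, the CCAAT box CCAAT, the TATA box TATAAA and the octamer ATTTGCAT. Hist1h1a had no match to the H1 box in its 300-base promoter, and Hist1h1c had none to TATAAA.
Hist1h1a: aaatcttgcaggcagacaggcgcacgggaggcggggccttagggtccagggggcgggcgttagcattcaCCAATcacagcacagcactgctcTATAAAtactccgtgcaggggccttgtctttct
Hist1h1b: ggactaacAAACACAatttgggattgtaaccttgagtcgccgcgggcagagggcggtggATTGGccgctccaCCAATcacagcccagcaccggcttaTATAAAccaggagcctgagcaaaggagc
Hist1h1c: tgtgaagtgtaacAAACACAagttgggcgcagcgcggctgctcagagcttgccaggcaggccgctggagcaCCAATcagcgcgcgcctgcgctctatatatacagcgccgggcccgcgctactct
Hist1h1e: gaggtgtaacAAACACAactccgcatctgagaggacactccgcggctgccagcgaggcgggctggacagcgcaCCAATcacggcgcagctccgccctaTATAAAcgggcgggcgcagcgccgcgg
Hist2h2bb: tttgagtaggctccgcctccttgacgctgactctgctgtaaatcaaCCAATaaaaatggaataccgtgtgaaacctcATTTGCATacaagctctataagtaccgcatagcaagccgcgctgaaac

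RefSeq promoters of 300 bases were found for 62 members. CCAAT was found in all 6 H1, 18 H2A, 16 H2B and 10 H3 promoters and in 3 of 12 H4 promoters, against 37.4% of all 32851 promoters in the table. TATAAA was found in 35 of 62 members against 13.6% of all promoters. The octamer ATTTGCAT, a binding sequence of Oct factors, was found in 7 of 18 H2A and 7 of 16 H2B promoters, in no H1, H3 or H4 promoter, and in 1.74% of all promoters. The H1 box was found in 5 of 6 H1 promoters and in 7.18% of all. Each motif was searched on both strands of the 300-base promoter, no letters of 1 motif exclude those of another, and a match is a description of letters only.

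Among the H2A genes, which encode 1 of the 2 partners of the H2A-H2B dimer, the testis-type Hist1h2aa had the most negative fold change. It stood at 21.5 and 31.4 CPM in WT day 0 and 3.71 and 3.08 CPM in WT day 14, and at 22.3 and 31.1 CPM in 6A day 0 and 1.93 and 1.54 CPM in 6A day 14. It fell in WT (-2.99 ± 0.26, edgeR adjusted p = 1.33e-07) and in 6A (-3.94 ± 0.28, adjusted p = 2.74e-08). Of the 2 H2A genes with the highest mean CPM, Hist1h2ah stood at 157 and 153 CPM in WT day 0 and 66.3 and 37.2 CPM in WT day 14 (-1.60 ± 0.36, adjusted p = 0.00663). The other, Hist1h2ac, stood at 120 and 154 CPM in WT day 0 and 74.5 and 38.0 CPM in WT day 14 (-1.30 ± 0.42, adjusted p = 0.0311). Neither passed in 6A (adjusted p = 0.0886 for Hist1h2ah and 0.218 for Hist1h2ac). The WT call of Hist1h2ac was lost in 6 of 14 alternatives (adjusted p up to 0.163), among them no filter on low counts and leaving out replicate 2 of WT day 14 or any day 0 library, and its log2 fold change ran from -1.81 to -0.88. That of Hist1h2ah was lost without either WT day 0 library (adjusted p up to 0.053). Hist1h2ah shares 84.8% of its windows with other genes. Hist2h2ab and Hist3h2a did not pass in either genotype, with fold changes between -0.47 and 0.13.

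The H2B genes encode the other partner of that dimer. Hist2h2bb stood at 499 and 535 CPM in WT day 0, 194 and 176 CPM in WT day 14, 429 and 446 CPM in 6A day 0, and 263 and 225 CPM in 6A day 14. It fell in WT (log2 fold change -1.48 ± 0.12 SE, edgeR adjusted p = 6.70e-08) and in 6A (-0.84 ± 0.12, adjusted p = 1.90e-05), and the days did not overlap. Its annotated transcript overlaps Gm42743 on the same strand and Gm20628 on the other strand. Of its windows, 33.6% were found in other genes, most often in Gm42743. Hist1h2bj stood at 192 and 168 CPM in WT day 0 and 58.9 and 41.6 CPM in WT day 14 (-1.85 ± 0.18, adjusted p = 7.36e-07), and fell in 6A as well (-1.14 ± 0.17, adjusted p = 6.00e-05). Hist1h2bh fell too, in WT (-1.36, adjusted p = 1.52e-06) and in 6A (-0.93, adjusted p = 6.15e-05). Hist1h2bb, next to Hist2h2bb in mean CPM among H2B genes, stood at 168 and 112 CPM in WT day 0 and 104 and 79.8 CPM in WT day 14 (-0.61, adjusted p = 0.0196), and did not pass in 6A (-0.47, adjusted p = 0.0589). Its WT call was lost without replicate 1 of WT day 0 or replicate 2 of WT day 14 (adjusted p up to 0.145). The testis-type Hist1h2ba, a gene also known from early embryos, stood at 62.1 and 44.1 CPM in WT day 0 and 18.3 and 12.3 CPM in WT day 14. It fell in WT (-1.80, adjusted p = 2.28e-05) and in 6A (-1.70, adjusted p = 3.69e-05). Hist2h2be went the other way from low levels, with 0.617 and 1.34 CPM in WT day 0 and 1.97 and 3.16 CPM in WT day 14 (1.31 ± 0.48, adjusted p = 0.0246). That call was lost with DESeq2, without replicate 1 of WT day 0 and without replicate 2 of WT day 14 (adjusted p between 0.0121 and 0.25 over 14 alternatives).

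The H3 genes encode the histone whose tail carries many regulatory marks. The 2 with the highest mean CPM were Hist1h3f, at 363 and 341 CPM in WT day 0 and 196 and 126 CPM in WT day 14, and Hist1h3e, at 299 and 294 CPM and then 217 and 128 CPM. Both fell in WT (-1.13 ± 0.25, edgeR adjusted p = 0.00294, and -0.79 ± 0.24, adjusted p = 0.0172), and neither passed in 6A (adjusted p = 0.112 and 0.450). The call of Hist1h3e in WT was lost without either WT day 0 library or without replicate 2 of WT day 14. Hist1h3g and Hist1h3d were the 2 H3 genes that fell in 6A (-1.09, adjusted p = 0.000117, and -0.49, adjusted p = 0.0236), and they also fell in WT (-1.57, adjusted p = 4.36e-06, and -0.75, adjusted p = 0.00164).

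The H4 genes encode the partner of H3. Hist1h4d stood at 503 and 408 CPM in WT day 0 and 326 and 214 CPM in WT day 14 (-0.76 ± 0.17, edgeR adjusted p = 0.00180), and at 357 and 344 CPM in 6A day 0 and 230.5 and 206 CPM in 6A day 14 (-0.69 ± 0.17, adjusted p = 0.00375). Hist4h4, the H4 gene on chromosome 6, stood at 296 and 199.98 CPM in WT day 0 and 227 and 132 CPM in WT day 14, so the days overlapped (-0.47 ± 0.40, adjusted p = 0.334). Hist2h4 stood at 221 and 200.3 CPM in WT day 0 and 93.0 and 63.6 CPM in WT day 14 (-1.43 ± 0.18, adjusted p = 1.70e-05), and it fell in 6A (-0.64, adjusted p = 0.00705).

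Before differentiation, most histone genes had lower fitted levels in 6A than in WT, and none passed the test. Of the 60 members, 55 had a log2 fold change below 0, with a median of -0.45 against 0.01 over all tested genes. Over all tested genes 1.58% were called, 1.06% higher and 0.518% lower. At an unadjusted p under 0.05 there were 17 members, and the smallest adjusted p was 0.0938, that of Hist1h1b. DESeq2 called 0 members as well, with 24 at an unadjusted p under 0.05. With the replicate number as a block, a pairing that no label states, more members were called lower than in any other alternative. That count is given in the last section. Without the filter on low counts edgeR called 5 members lower, and without replicate 1 of WT day 0 it called 3.

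Both 6A libraries lay below both WT libraries for 36 of the 60 members, or 60.0%, whereas this held for 20.8% of all tested genes. The reverse held for 2 members, or 3.33%, against 24.9% of all. By class the count was 6 of 6 H1, 8 of 14 H2A, 8 of 17 H2B, 7 of 10 H3 and 7 of 13 H4 genes. As ratios of group means, 6A stood at 0.711 of WT for H1, 0.738 for H2A, 0.820 for H2B, 0.675 for H3 and 0.710 for H4. Hist1h1b, whose levels are given above, had a log2 fold change of -0.42 ± 0.12 (edgeR adjusted p = 0.0938). For Hist1h3f, WT stood at 363 and 341 CPM and 6A at 258 and 204 CPM (-0.60 ± 0.24, adjusted p = 0.272). For Hist1h4d, WT stood at 503 and 408 CPM and 6A at 357 and 344 CPM (-0.38 ± 0.17, adjusted p = 0.309). In these 3 genes both 6A libraries were the lower ones, and none of the differences passed the test.

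Other lists moved at day 0 with these values. All 15 feeder and fibroblast markers had fitted values above 0 in 6A, and summed to 4677 and 5071 CPM for WT and to 6129 and 5434 CPM for 6A, with none at 0. Lox (0.63 ± 0.11, edgeR adjusted p = 0.0114) and Postn (0.53 ± 0.12, adjusted p = 0.0417) passed as higher in 6A. The call of Lox was lost in 3 of 14 alternatives (adjusted p up to 0.126) and that of Postn in 9 of 14 (adjusted p up to 0.336). The 6 Y-linked genes summed to 28.3 and 28.2 CPM in WT and to 43.4 and 46.9 CPM in 6A at day 0, and to at most 0.0966 CPM in any day 14 library. The part of these genes in the histone values was not tested. The 26 S phase genes had a median of -0.09, with 0 called by edgeR and 1 at an unadjusted p under 0.05, and summed to 7558 and 7385 CPM for WT and to 7044 and 6933 CPM for 6A. Of the 11 replication-independent histone variants, 9 had fitted values below 0 and 2 above, with a median of -0.20 and 0 called. They summed to 1975 and 1741 CPM for WT and to 1689 and 1440 CPM for 6A, so lower fitted values were not limited to the members.

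**Figure D4:**
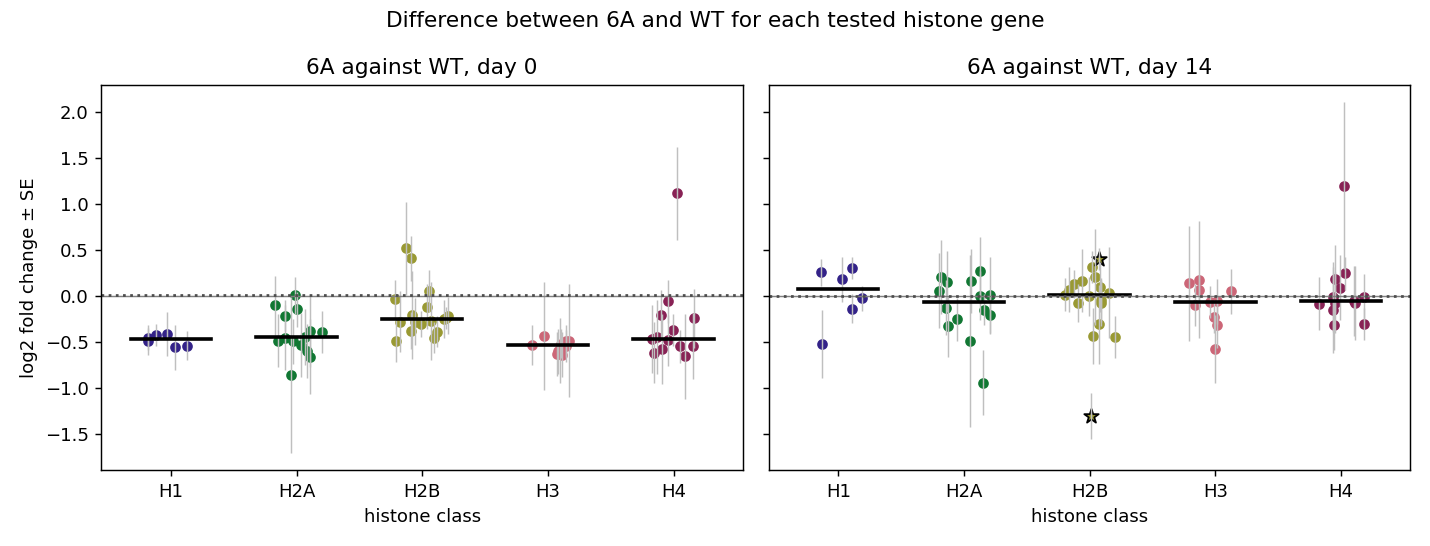
Log2 fold change (± SE) of 6A against WT for each of the 60 tested histone genes at day 0 (left) and day 14 (right), by class. Black bars are class medians, the dotted line is the median of all tested genes and stars mark called genes. At day 0, 55 points lie below 0 and none is called, while at day 14 values scatter around 0.

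After differentiation, the histone genes of 6A against WT had a median log2 change at day 14 of -0.02, against 0.004 over all tested genes. Of the members 1 was higher in 6A, Hist2h2bb, and 1 lower, Hist3h2ba, while 13.6% of all tested genes were called, 5.33% higher and 8.31% lower. Both 6A libraries lay above both WT libraries for 3 members, or 5%, against 28.2% of all tested genes, and below them for 5 members, or 8.33%, against 28.5% of all. Hist2h2bb stood at 263 and 225 CPM for 6A, above 194 and 176 CPM for WT (0.40 ± 0.12, edgeR adjusted p = 0.0355). It did not pass when any single day 14 library other than replicate 2 of 6A, or any single 6A day 0 library, was left out. Hist3h2ba, an H2B gene on chromosome 11, stood at 4.93 and 5.02 CPM for 6A, below 15.3 and 9.73 CPM for WT (-1.31 ± 0.25, adjusted p = 0.00292), and that call was kept in every alternative run. The median of the members was 0.33 without replicate 1 of WT day 14 and -0.35 without replicate 2, so no direction can be read from it.

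The interaction, which is the difference between 6A and WT at day 14 minus that at day 0, was positive for 53 members and negative for 7, with a median of 0.41 against -0.01 over all tested genes. It uses all 8 libraries and therefore shares them with each comparison above. Hist1h1b (0.72 ± 0.17, edgeR adjusted p = 0.0260) and Hist2h2bb (0.64 ± 0.16, adjusted p = 0.0404) passed as higher and Hist3h2ba (-1.36 ± 0.34, adjusted p = 0.0356) as lower. These 3 of 60 members compare with 4.74% of all tested genes, 1.4% higher and 3.34% lower. Hist1h1a came next to the threshold (0.75 ± 0.21, adjusted p = 0.0579). Each of the 3 calls was lost when some single libraries were left out, 5 of 8 for Hist1h1b, 6 of 8 for Hist2h2bb and 5 of 8 for Hist3h2ba. The median was 0.77 without replicate 1 of WT day 14 and 0.11 without replicate 2.

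Genes that work with these histones were read from the same fits. Of 26 S phase and DNA replication genes, 25 fell in WT and 24 fell in 6A by day 14, with medians of -1.81 and -1.49, against the 36.8% and 36.6% of all tested genes that fell. Ccne1, the cyclin that starts S phase, stood at 381 and 319 CPM in WT day 0 and 43.9 and 43.5 CPM in WT day 14 (-3.00 ± 0.13, edgeR adjusted p = 1.63e-10). At day 14, 3 of the 26 were higher in 6A, against 5.33% of all tested genes, namely Orc1, a subunit of the origin recognition complex (0.60 ± 0.13, adjusted p = 0.00667), Tyms, which makes thymidylate (0.65 ± 0.15, adjusted p = 0.00838), and Mcm5 of the replicative helicase (0.36 ± 0.11, adjusted p = 0.0444). These calls were lost in 2, 3 and 6 of 14 alternatives, in each case when a day 14 library was left out and for Mcm5 also without either 6A day 0 library (adjusted p up to 0.258 for Mcm5).

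Of 20 tested genes of histone mRNA 3′ end processing and decay, 14 fell and 3 rose in each genotype. Over all tested genes 36.8% fell and 38.4% rose in WT, and 36.6% fell and 35.4% rose in 6A. Slbp stood at 156 and 144 CPM in WT day 0 and 58.2 and 52.0 CPM in WT day 14 (-1.45 ± 0.12, edgeR adjusted p = 7.81e-08), and fell by 1.29 in 6A (adjusted p = 2.69e-07) on the log2 scale. Zfp473, a zinc finger protein of the U7 machinery, and the cleavage stimulation factor Cstf2 fell in WT (-1.85, adjusted p = 5.44e-08, and -1.80, adjusted p = 4.57e-08). Lsm11, a protein of the U7 snRNP ring, rose in WT from 13.2 and 16.4 CPM to 31.1 and 30.1 CPM (1.03 ± 0.16, adjusted p = 5.31e-05) and was lower in 6A than in WT at day 14 (-0.68 ± 0.16, adjusted p = 0.0115), a call lost in 3 of 14 alternatives, without either WT day 14 library or replicate 1 of 6A day 14. Rnu7, the U7 RNA itself, had 0 counts in all libraries. At day 0 no gene of this list was called by edgeR, and 1 was at an unadjusted p under 0.05.

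Of 18 histone chaperones and assembly factors, 14 fell and 2 rose in WT, and 15 fell and 2 rose in 6A. The shares of all tested genes that fell were 36.8% in WT and 36.6% in 6A. Chaf1b, a subunit of the assembly factor that follows the replication fork, fell in WT (-1.68, adjusted p = 3.07e-08) and in 6A (-1.16, adjusted p = 1.28e-06). Of 11 replication-independent histone variants, 5 rose and 4 fell in WT, and 5 rose and 3 fell in 6A. The counts for the variants are near the background of all tested genes (38.4% higher and 36.8% lower in WT, 35.4% and 36.6% in 6A). H1f0, the linker histone of quiescent and differentiated cells, stood at 35.05 and 31.4 CPM in WT day 0 and 340 and 300.3 CPM in WT day 14 (3.27 ± 0.14, edgeR adjusted p = 1.23e-10). In 6A it stood at 41.6 and 35.4 CPM at day 0 and 231 and 215 CPM at day 14, with an interaction of -0.73 ± 0.18 (adjusted p = 0.0324). The interaction was lost when any 1 of 6 of the 8 libraries was left out (adjusted p up to 0.145). H2afz and Cenpa, the histones of promoters and centromeres, fell in both genotypes. H3f3b, an H3.3 gene, rose in both (0.38 ± 0.12, adjusted p = 0.0114, and 0.64 ± 0.12, adjusted p = 0.000352).

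The 2 libraries of a group differed more in the histone genes than over all tested genes. In WT day 0 the margin was small for the median ratio without regard to sign. At day 14, replicate 2 was lower than replicate 1 for 58 of 60 members in WT and 55 of 60 in 6A, against 49.5% and 49.1% of all tested genes. The median log2 ratio of replicate 2 to replicate 1 was -0.62 in WT day 14 and -0.39 in 6A day 14, and 0.002 and 0.006 over all tested genes. A ratio beyond 0.5 in size was found for 76.7% of the members in WT day 14, against 8.59% of all. At day 0 the medians were -0.08 in WT and -0.28 in 6A. There 37 and 44 of 60 members were below 0, against 46.3% and 45.6% of all tested genes. Without regard to sign, the median ratio in WT day 0 was 0.24 for the members and 0.22 over all tested genes. In 6A day 0 it was 0.33 and 0.14. By this median, H3 (0.129) and H2A (0.175) in WT day 0 lay below all tested genes, and H1, H2B and H4 above. Ratios beyond 0.5 in size were found at day 0 for 30% of members in WT and 28.3% in 6A. Over all tested genes the shares were 16.2% and 8.09%. Classes differed in this spread. H4 medians ran from -0.38 in WT day 0 to -0.73 in 6A day 14 and were negative in all 4 groups, and H1 medians ran from -0.09 in 6A day 0 to -0.34 in WT day 14. H2A had a median of 0.10 in WT day 0 and of -0.80 in WT day 14. The 308 short genes outside the family had medians between -0.22 and 0.04 in the 4 groups. These ratios add 0.5 CPM to each level.

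**Figure D5:**
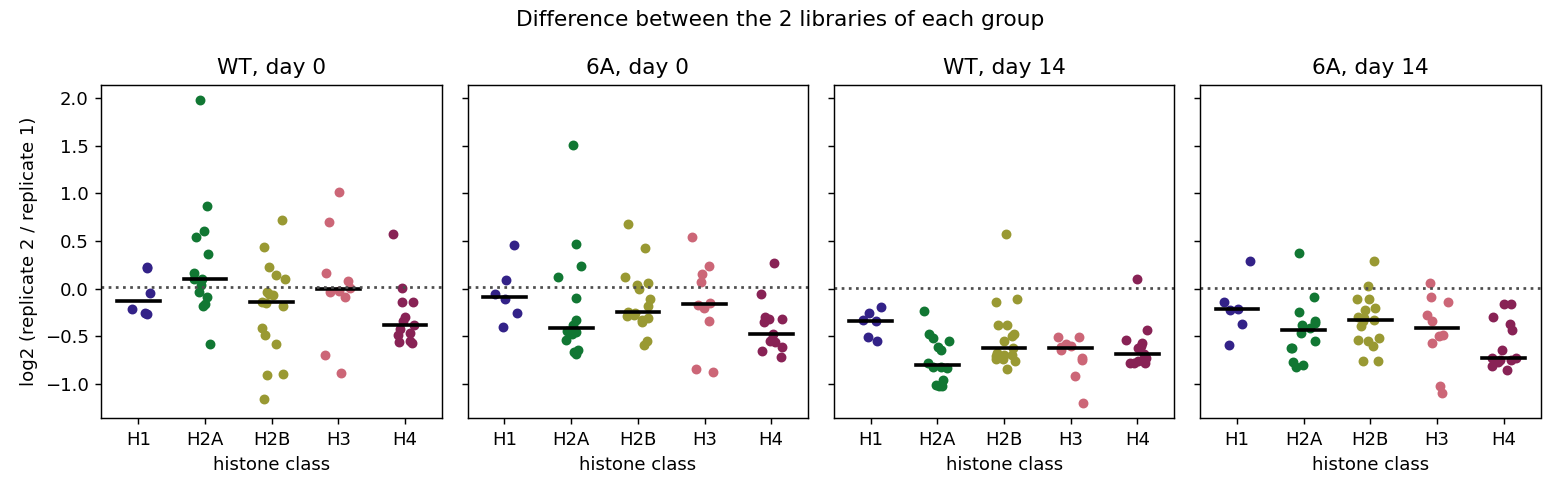
Log2 ratio of replicate 2 to replicate 1 for each tested histone gene by class in the 4 groups. Black bars are class medians and the dotted line is the median of all tested genes. At day 14 nearly all points lie below the line, 58 of 60 in WT and 55 of 60 in 6A, and in H4 the median is negative in each group.

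The line is a hybrid, and the tables also count reads assigned to each parental genome, CAST or 129. Over all genes 79.9% to 80.8% of allele reads were given to 129. For 35 members every library had at least 50 allele reads. The 129 share of Hist1h1a was between 50.7% and 54.1% in the 8 libraries, and that of Hist1h1e between 44.8% and 48.8%. In Hist1h3f the share was 99.4% to 100%, and in Hist1h3g 0% to 1.10%, in all groups. In Hist1h2ba, it was 75.0% and 75.3% in WT day 0 and 69.5% and 70.8% in 6A day 0, and 94.0% and 96.0% in WT day 14 and 93.3% and 93.4% in 6A day 14, so every day 14 library was above every day 0 library. In Hist2h2ac it ran from 23.8% to 70.4%, and both of these were WT day 0 libraries. The method of allele assignment was not stated in any source used, and near-identical copies share much of the sequence on which it rests.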

How the data were processed

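The authors sequenced 150-base paired-end directional libraries. The submitters' processing notes name cutadapt 1.4.2, STAR 2.7.10a and mm10, while counter, strand setting and annotation were not stated in any source used. Raw counts per gene were deposited, as whole numbers whose totals differ between libraries, and the count of all reads was used. Genes were kept by filterByExpr and fitted with edgeR 4.0.16 under R 4.3.3 (TMM, robust quasi-likelihood, all 8 libraries, 1 coefficient per group, 4 residual degrees of freedom). A Benjamini-Hochberg adjusted p under 0.05 over all 15458 tested genes was called. Variation between libraries of a group, the common biological coefficient, came to 0.111. The fit was tested on simulated data for 6A against WT at day 0 (13929 genes tested). There, 100% of genes changed by 1 or 2, 34% of those changed by 0.5 and 32% of those changed by -0.5 (log2) were recovered. All genes were simulated with the same spread, 0.111, and only genes above a minimum expected count were changed. In the data, replicates differed by more than 0.5 (log2) for 30% of members in WT day 0 and 28.3% in 6A day 0. This compares with 16.2% and 8.09% of all tested genes, so the recovered shares do not carry over to the histone genes. Group values are the 2 libraries. The members, lists and tests were chosen with earlier results of these data known. Named were Hnrnpk, the 2 members of each class with the highest mean CPM, up to 6 called members per direction and comparison, and up to 4 called genes of each other list. Hist1h1d, Hist2h2ab, Hist2h2ac, Hist3h2a, Hist1h3d, Hist1h3g, Hist2h4, and genes of other lists or of the allele counts named beyond this rule, were chosen after their values were seen. Alternatives were RLE scaling, DESeq2 1.42.0, no filter, TMM without the members, only the 2 groups compared, the replicate number as a block, and leaving out each library. Sequences came from GENCODE M21 and RefSeq (GRCm38.p6).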

Additional observations from a re-analysis of the deposited data

Results flagged for a closer look

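Results are listed here where the change from day 0 to day 14 differed between WT and 6A by the interaction test of edgeR. Among the histone genes these were Hist1h1b (0.72, adjusted p = 0.0260), Hist2h2bb (0.64, adjusted p = 0.0404) and Hist3h2ba (-1.36, adjusted p = 0.0356). Among the other lists they were H1f0 (-0.73, adjusted p = 0.0324), the S phase genes Tyms (0.77, adjusted p = 0.0449) and Orc1 (0.65, adjusted p = 0.04998, just under the threshold), and the fibroblast markers Postn (-0.88, adjusted p = 0.00623) and Prrx1 (-1.04, adjusted p = 0.0142). Of 13 alternatives, the calls were lost in 5 for Hist1h1b, 6 for Hist2h2bb, 6 for Hist3h2ba, 6 for H1f0, 7 for Tyms, 3 for Prrx1 and 0 for Postn, and in 8 for Orc1, which did not pass without any 1 of the 8 libraries.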

How the results depend on the processing

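All alternatives listed with the methods were run, and no call of a named gene changed sign. The 6A against WT values at day 14 lie near 0 and took either sign: the median of the members (-0.02) was 0.02 with RLE scaling, 0.01 with DESeq2 and 0.02 without the filter, and the sums of all 5 classes changed sign when single libraries were left out. The log2 ratio of the H1 sum on differentiation of 6A (-0.06) ran from -0.22 to 0.08. Class sums were recomputed only with RLE scaling, with TMM without the members and without each library, and medians under every alternative. Both moved by more than the spread between replicates only when a library was left out. For named genes 109 calls were lost when a library was left out and 13 under other settings.

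At day 0 (6A against WT) edgeR called 244 genes, against 459 without the filter on low counts and 23 with only the 2 groups compared, and 0 members lower, against 5 without the filter. With only the 2 groups compared, 2 members were lower at day 14. With DESeq2, 0 members were higher on differentiation of WT, 4 were higher and 0 lower in the interaction, and without the filter 5 were higher in the interaction.

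Leaving out each library in turn gave 32 to 567 genes called at day 0 (without replicate 2 of 6A day 0 and replicate 1 of WT day 0), 982 to 2759 at day 14 and 280 to 835 in the interaction (lowest without replicate 2 of WT day 14 for both). Members lower at day 0 ranged from 0 to 3, higher at day 14 from 0 to 1, and higher and lower in the interaction from 0 to 3 and from 0 to 1. On differentiation, 25 to 44 members were lower and 1 to 2 higher in WT, and 1 to 2 higher in 6A. Leaving out replicate 2 or replicate 1 of WT day 14 gave medians of -0.35 and 0.33 at day 14, -0.63 and -1.32 on differentiation of WT, and 0.11 and 0.77 in the interaction. Class sums (log2 ratio) at day 14 then ranged from -0.10 to 0.29 for H1, -0.41 to 0.35 for H2A, -0.14 to 0.37 for H2B, -0.36 to 0.33 for H3 and -0.42 to 0.28 for H4, the last lowest without replicate 1 of 6A day 14. On differentiation of WT they ranged from -0.84 to -0.46 for H1, -1.45 to -0.69 for H2A, -1.41 to -0.90 for H2B, -1.41 to -0.72 for H3 and -1.37 to -0.68 for H4. With 1 library left in a group, that library is assumed to vary like those of the other groups.

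No label says that a replicate number marks a shared culture or day. Deviations of same-numbered libraries correlated between 0.01 and 0.32 over all tested genes for the 6 pairs of groups, over 0.1 in 4 of them, and most histone genes were lower in replicate 2 in every group, so whether the numbers pair the libraries cannot be settled here. With the replicate number as a block, 466 genes and 16 members (lower) were called at day 0, 2 members were higher at day 14, 2 were higher on differentiation of WT, 42 were lower on differentiation of 6A and 12 were higher in the interaction. With 2 libraries a group, changes of 0.5 (log2) were mostly not recovered in simulated data, so absent calls at that size say little.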
